A study of Mus musculus with 4 samples.

Results

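The genes described here are 10 that make, sense or move oxysterols and cholesterol inside cells, taken from a table of 45777 mouse genes by their symbols. They are Ch25h, Cyp27a1, Cyp7b1, Hsd3b7, Gpr183, Soat1, Npc1, Npc2, Osbp and Nceh1. The RNA-seq libraries came from MG5, a microglial line of mouse origin. Its cells were kept in DMEM with serum, with spent medium of the A1 astrocyte-like line added. In 2 libraries, replicates 1 and 3, the cells had received 6OHA at 10 µM for 6 h, and in the other 2 libraries, replicates 1 and 2, they were untreated. 6OHA is a retinoid X receptor (RXR) agonist known here by its code name, and the labels do not say whether the untreated cells received its solvent. The question is which transcripts differ after the agonist. MG5 is a single line, so the libraries do not represent different animals. Whether the 2 libraries of a group stem from different cultures is not stated, and the p-values therefore reflect library-to-library spread that may be technical.

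Oxysterols are cholesterol molecules that carry an added hydroxyl or keto group. They activate the liver X receptors (LXR), which pair with RXR and switch on cholesterol export genes, and they hold back the SREBP factors that drive cholesterol synthesis. In macrophages and microglia, Ch25h makes the side-chain oxysterol named for it, Cyp7b1 turns that product into the ligand of the chemotactic receptor Gpr183, and Hsd3b7 inactivates the ligand. Cholesterol released in lysosomes leaves through the paired proteins Npc2 and Npc1, while Osbp, Soat1 and Nceh1 transfer, esterify and release it elsewhere in the cell. Ch25h is known as a gene induced by interferons and by Toll-like receptor ligands in these cells.

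Ch25h was lower by about 2-fold in the treated cells, and it was the only one of the 10 genes to pass the test. Ch25h (Entrez gene 12642) is a gene of 1 exon on the minus strand of chromosome 19, from 34473783 to 34475148 on GRCm38, the assembly that mm10 names. The RefSeq promoter window of Ch25h, chr19:34475099-34475398 on the minus strand, is shown because this gene changed. The capitals mark TGACGTCA, the cyclic AMP response element that CREB and ATF factors bind. The window of the neighbouring gene Lipa, chr19:34527425-34527724 on the minus strand, is shown because Lipa changed in the other direction, and its capitals mark a CCAAT box read on the opposite strand. The window of the receptor gene Gpr183, chr14:121965144-121965443 on the minus strand, is shown because its product reads the end of the same pathway, and it has no capitals because none of the motifs searched was found there. All are from GRCm38.p6 and run 5′ to 3′.
Ch25h: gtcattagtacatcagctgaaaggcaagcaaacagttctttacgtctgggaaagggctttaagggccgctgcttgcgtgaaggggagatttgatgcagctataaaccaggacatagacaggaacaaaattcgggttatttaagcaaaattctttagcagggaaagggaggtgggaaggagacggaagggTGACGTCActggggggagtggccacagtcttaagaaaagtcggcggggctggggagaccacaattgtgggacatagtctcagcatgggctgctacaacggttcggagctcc
Lipa: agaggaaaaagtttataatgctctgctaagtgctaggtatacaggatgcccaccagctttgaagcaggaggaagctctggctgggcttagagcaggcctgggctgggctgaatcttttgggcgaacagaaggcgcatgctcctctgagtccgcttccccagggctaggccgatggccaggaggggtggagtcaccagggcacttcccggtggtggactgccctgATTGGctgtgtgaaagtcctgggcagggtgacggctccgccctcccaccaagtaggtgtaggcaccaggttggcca
Gpr183: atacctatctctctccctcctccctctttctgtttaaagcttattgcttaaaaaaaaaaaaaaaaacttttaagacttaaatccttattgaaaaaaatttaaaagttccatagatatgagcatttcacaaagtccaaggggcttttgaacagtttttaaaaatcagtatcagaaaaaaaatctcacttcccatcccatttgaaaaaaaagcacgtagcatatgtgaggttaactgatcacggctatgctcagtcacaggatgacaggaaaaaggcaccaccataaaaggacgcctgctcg

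The TGACGTCA of Ch25h starts 61 bases before the annotated start, and the search for it was added after this window had been read. It occurs in 1.79% of 32823 promoter windows of the same length, and in none of the windows of the other members. Of 373 tested genes with TGACGTCA in a window, 2 rose and 5 fell, which is 0.536% and 1.34% of them, with a median log2 fold change of -0.01. The corresponding shares among all 14634 tested genes are 1.39% risen and 0.629% fallen. Ch25h, whose window had been read before this motif was searched, is itself among the 5 that fell. Windows were found for 8 of the 10 members. Searched on both strands, the direct repeats of AGGTCA that LXR with RXR (DR4) and PPAR with RXR (DR1) bind occurred in no member's window and in 0.0152% and 0.0396% of all windows. The single AGGTCA contained in both was also searched after the windows had been read, and was in no member's window and in 16.3% of all. TCACNCCAC of SREBP (1.24% of all windows), the ISRE, a pair of GAAA, of interferon factors (3.45%), the kB site of NF-kB (0.411%), TGANTCA of AP-1 (7.81%) and the CLEAR motif of TFEB (0.326%) were in no member's window. CACGTG, the E-box that lies within the TFEB motif, was in that of Nceh1 and in 7.15% of all. The GC box GGGCGG was in the windows of Cyp27a1, Hsd3b7, Soat1, Npc2 and Osbp and in 35.7% of all, and CCAAT was in those of Cyp27a1, Soat1, Npc2, Osbp and Nceh1 and in 37.4% of all. Neither box was in the windows of Ch25h and Gpr183. The member windows ranged from 35.3% G and C in Gpr183 to 67.0% in Osbp around a median of 52.7% over all windows, and Ch25h was at 51.0%.

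Total counts ran from 31057950 to 42541641 per library, so a gene at 0 counts could lie at up to 0.0705 to 0.0966 counts per 1e6 reads (CPM), which is the level of 3 counts and allows for counting error alone. The labelled cell type was checked against 12 genes of microglia and macrophages, which were all present at a summed 11462 to 12593 length-scaled TPM in control and 11670 to 12999 TPM in 6OHA. Of these 12, Cx3cr1 fell (log2 fold change -0.81, adjusted p = 0.00257). Astrocyte markers summed to 15.4 TPM in both control libraries and to 10.1 and 10.5 TPM in 6OHA, with 2 of 8 at 0 (Gfap and Aqp4) and most of the sum in Aldh1l1. Neuronal markers summed to 8.25 to 8.29 TPM in control and 4.51 to 5.87 TPM in 6OHA, with Rbfox3, Syt1 and Stmn2 at 0 among 6, and Map2 fell (log2 fold change -0.76, adjusted p = 0.0273). Endothelial markers summed to 86.1 to 97.5 TPM in control and 79.2 to 80.6 TPM in 6OHA, nearly all from Kdr, with Cldn5 at 0 among 5. Oligodendrocyte markers summed to 41.7 to 43.1 TPM in control and 47.7 to 49.3 TPM in 6OHA, nearly all from Mbp, with Mog, Olig2 and Sox10 at 0 among 6. The part of these differences in the results was not tested. Fibroblast markers summed to at most 0.0466 TPM, with 5 of 6 at 0, and lymphocyte markers to at most 1.21 TPM, with 3 of 6 at 0, and for both lists the groups overlapped. Within each group, replicate 1 and its partner library had opposite trends over the GC content of genes, relative to the mean of all 4 libraries. Because values were centred on that mean, some libraries must rise where others fall. The fitted trend from 42% to 56% GC fell by 0.105 on the log2 scale in 6OHA replicate 1 and by 0.165 in control replicate 1, and rose by 0.101 in 6OHA replicate 3 and by 0.173 in control replicate 2. Transcripts of the tested members lay between 47.4% and 55.8% GC.

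Per transcript length, the 9 detected members spanned a wide range of levels in untreated cells. Npc2, the soluble lysosomal protein that hands cholesterol on, was the most abundant at 407 ± 21.7 TPM (SD, n = 2), at the 97.7th percentile of tested genes by mean TPM over all 4 libraries. Ch25h came next at 295 ± 26.8 TPM, and Npc1, the membrane protein that receives cholesterol from Npc2, followed at 256 ± 3.26 TPM. The ranges of these neighbours in the order did not overlap. Nceh1, which hydrolyses cholesterol esters, at 133 ± 11.4 TPM, and Soat1, which forms them, at 130 ± 8.10 TPM, had overlapping ranges. Hsd3b7 followed at 72.7 ± 1.05 TPM, Osbp at 33.1 ± 1.97 TPM, Gpr183 at 10.7 ± 0.0934 TPM and the mitochondrial sterol hydroxylase gene Cyp27a1 at 7.82 ± 0.0403 TPM. Cyp7b1 had 0 counts in all 4 libraries. The transcript of the enzyme between Ch25h and the ligand of Gpr183 was therefore not detectable at this depth and was not tested.

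In 6OHA the order was the same except for Ch25h. Ch25h lay at 148 ± 9.60 TPM, below Npc1 at 272 ± 4.46 TPM and next to Nceh1 at 140 ± 0.910 TPM and Soat1 at 138 ± 5.01 TPM. The lower Ch25h library, at 141.1 TPM, and the higher Soat1 library, at 141.5 TPM, were close, and both came from 6OHA replicate 1. The TPM of Ch25h was 2.03 and 2.51 times that of Soat1 in control replicates 1 and 2, and 0.997 and 1.15 times in 6OHA replicates 1 and 3. It was 3.84 and 4.27 times that of Hsd3b7 in control and 2.18 and 2.31 times in 6OHA. Such ratios within a library do not depend on how libraries are scaled, and for both pairs the groups did not overlap.

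**Figure D1:**
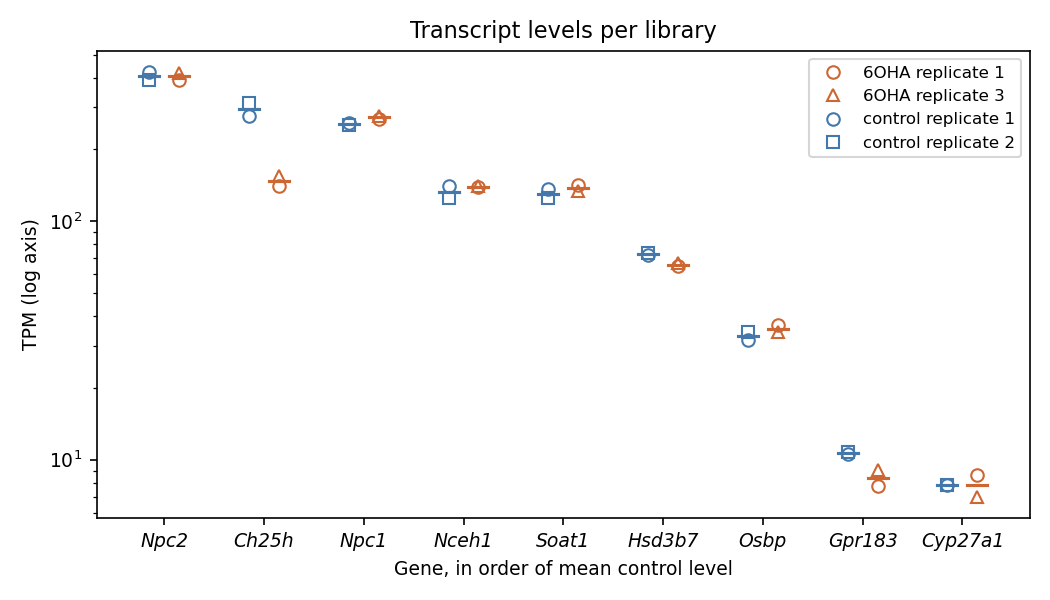
TPM on a log axis of the 9 detected genes in each of the 4 libraries, with control in blue and 6OHA in orange, symbols for the replicate and short lines for group means. Ch25h is the gene whose 6OHA values, 141.1 and 154.7 TPM, sit far below its control values of 275.9 and 313.8 TPM.

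Ch25h had 7393 and 7029 reads in control replicates 1 and 2 and 2790 and 3461 reads in 6OHA replicates 1 and 3. Scaled to library size these were 172 and 203 CPM in control and 90.6 and 99.1 CPM in 6OHA. Both 6OHA libraries lay below both controls, and the gap between the groups was wider than the spread within either. The level was 1.98-fold lower, with a 6OHA mean of 94.8 ± 6.01 CPM (SD, n = 2) and a control mean of 187 ± 21.4 CPM. The log2 fold change was -0.98 (SE 0.11, 95% interval -1.22 to -0.75, edgeR's quasi-likelihood test with Benjamini-Hochberg adjustment, adjusted p = 0.000635). Fewer cells that express a gene and less RNA per cell cannot be told apart in these bulk libraries. Ch25h ranked 22nd by size of change among the 92 genes that fell, and 52nd of all tested genes by p. GENCODE places a noncoding gene, Gm26902, head to head with it on the opposite strand, and 9.51% of the 31-base stretches of Ch25h transcripts also occur there. Gm26902 is no row of the table, and the counting is not stated to use strand.

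Of the 9 members tested, 1 fell, 0 rose and 8 did not pass, against 2.02% of all tested genes called in either direction. At an unadjusted p under 0.05 there were 2 lower, Ch25h and Gpr183, and 0 higher, where 10.9% of all tested genes reached that p in either direction. DESeq2 called 1 member lower and 0 higher, and 2.94% of all tested genes. The median log2 fold change of the members was 0.01, against -0.01 over all tested genes. The 2 groups did not overlap for 6 members, 3 higher and 3 lower in 6OHA, while 38.8% of all tested genes had groups apart (18.7% higher and 20.1% lower). The widest 95% interval among the 8 that did not pass was that of Cyp27a1, and their intervals together ran from -0.63 to 0.37 on the log2 scale. These intervals are per gene and are not adjusted for the number of genes.

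**Figure D2:**
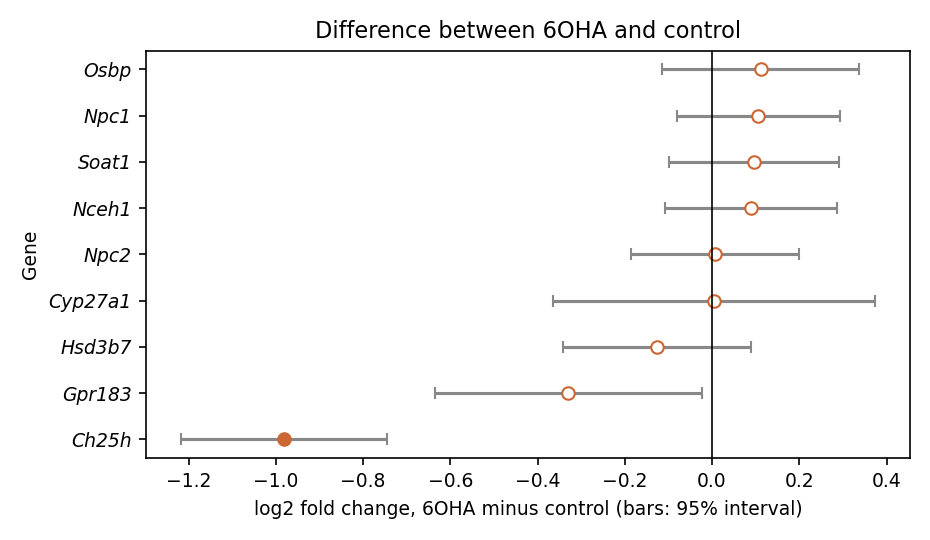
Log2 fold change of 6OHA minus control (horizontal axis) for the 9 tested genes, with bars for the 95% interval and a filled point where the adjusted p is under 0.05. Ch25h stands at -0.98 and the others lie between -0.33 and 0.11.

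The other genes of the side-chain oxysterol route were the receptor and the enzymes after and beside Ch25h. Gpr183, whose product guides immune cells along gradients of the dihydroxylated oxysterol, measured 14.3 and 14.9 CPM in control replicates 1 and 2 and 10.7 and 12.5 CPM in 6OHA replicates 1 and 3. Both 6OHA values were below both control values, but the log2 fold change of -0.33 (SE 0.14, 95% interval -0.63 to -0.02) did not pass over all genes (unadjusted p = 0.0370, adjusted p = 0.404). Gpr183 (321019) lies on the minus strand of chromosome 14 from 121952331 to 121965193, within Ubac2 on the opposite strand. Ubac2 measured 23.6 to 24.3 CPM in 6OHA and 24.9 to 28.2 CPM in control, with a log2 fold change of -0.15 (adjusted p = 0.787), and Gpr183 transcripts share no 31-base stretch with it or with any other GENCODE transcript.

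Hsd3b7, which inactivates the Gpr183 ligand and acts in bile acid synthesis, measured 59.6 and 62.9 CPM in control and 55.2 and 57.1 CPM in 6OHA. The groups were apart, and the log2 fold change of -0.13 (95% interval -0.34 to 0.09) did not pass (adjusted p = 0.778). Hsd3b7 (101502), on chromosome 7 from 127800609 to 127803802, overlaps the GENCODE genes Gm49388 on its own strand and 9430064I24Rik on the other, which hold 88.8% of its 31-base stretches and are no rows of the table, so its counts may include reads of either. Cyp27a1 (104086, chromosome 1 from 74713148 to 74737897), which makes another side-chain oxysterol, was measured from 229 to 309 reads per library. It lay at 7.20 and 7.35 CPM in control and at 8.08 and 6.56 CPM in 6OHA, so that the 6OHA libraries fell on both sides of the controls (log2 fold change 0.00, 95% interval -0.36 to 0.37, adjusted p = 0.997). Cyp7b1 (13123, chromosome 3 from 18071944 to 18243890) is the member at 0 throughout.

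Npc1 and Npc2, whose loss causes lysosomal cholesterol storage in Niemann-Pick disease type C, were measured with more reads than any other member and did not pass. Npc1 (18145, chromosome 18 from 12189694 to 12236506) lay at 614 and 622 CPM in control and 659 and 672 CPM in 6OHA. These groups were apart, with a log2 fold change of 0.11 (95% interval -0.08 to 0.29, adjusted p = 0.783). Rmc1, which overlaps Npc1 on the opposite strand, had a log2 fold change of -0.16 (adjusted p = 0.611), and 5.78% of Npc1 stretches are shared with Rmc1 and other transcripts. Npc2 (67963, chromosome 12 from 84754559 to 84773112) lay at 630 and 604 CPM in control and 601 and 640 CPM in 6OHA, where the groups overlapped (log2 fold change 0.01, 95% interval -0.19 to 0.20, adjusted p = 0.992). The TPM of Npc2 was 1.55 to 1.64 times that of Npc1 in control and 1.46 to 1.52 times in 6OHA.

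Osbp, a carrier that exchanges cholesterol for a phosphoinositide between the endoplasmic reticulum and the Golgi and that binds oxysterols, measured 67.4 and 75.4 CPM in control and 80.0 and 74.2 CPM in 6OHA. The groups overlapped (log2 fold change 0.11, 95% interval -0.11 to 0.34, adjusted p = 0.824). Osbp (76303) lies on the same chromosome as Ch25h, from 11965844 to 11994114. Soat1 (20652, chromosome 1 from 156428108 to 156474328) lay at 297 and 281 CPM in control and 318 and 301 CPM in 6OHA, apart but with a log2 fold change of 0.10 (95% interval -0.10 to 0.29, adjusted p = 0.825). Nceh1 (320024, chromosome 3 from 27183004 to 27245266) lay at 286 and 262 CPM in control and 291 and 292 CPM in 6OHA, also apart, with a log2 fold change of 0.09 (95% interval -0.11 to 0.29, adjusted p = 0.850). The enzymes of esterification and ester hydrolysis had nearly equal TPM in every library, with Soat1 at 0.966 and 0.999 times Nceh1 in control and 1.02 and 0.958 times in 6OHA.

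Around Ch25h, neighbouring genes differed in direction. The nearest protein-coding gene is Lipa, the lysosomal acid lipase that frees cholesterol from lipoprotein esters, which spans 34492316 to 34527474 on the same strand, with 17168 bases between the annotated genes. Lipa measured 333 and 330 CPM in control and 487 and 462 CPM in 6OHA. Both treated libraries were above both controls, and Lipa was 1.43-fold higher (log2 fold change 0.52, SE 0.09, adjusted p = 0.0103 by edgeR's quasi-likelihood test). The call was lost in 4 of 14 alternatives, which were leaving out 6OHA replicate 1 (adjusted p = 0.0948), no filter (0.0560), log2(FPKM + 1) (0.0672) and log2(FPKM + 0.1) (0.0612). On the other side, Fas, a death receptor gene 146008 bases away, measured 9.39 CPM in both controls and 5.19 and 6.35 CPM in 6OHA. Its log2 fold change of -0.70 did not pass (adjusted p = 0.0650), though it passed in 1 of 14 alternatives. Beyond Lipa lie the Ifit genes, which interferons induce. All 6 tested Ifit genes had log2 fold changes below 0, from -0.68 to -0.27, and 0 passed with edgeR. The median over all tested genes was -0.01. The -0.68 was that of Ifit1bl2, which had means of only 0.444 CPM in 6OHA and 0.724 CPM in control. Ifit1, at -0.54 (adjusted p = 0.0596), passed with the DESeq2 test (0.0216). Under the 14 alternatives, Ifit2 ran from -0.53 to -0.07 and Ifit3 from -0.71 to -0.19. Shared stretches were not examined for the Ifit genes, so their reads are uncertain and their values may not be independent of each other. Of 16 tested genes within 500 kb of Ch25h, Lipa rose, Ch25h fell and the rest did not pass. Among all tested genes, 2.02% were called in either direction. The window was centred on Ch25h, itself a called gene, so its own call was fixed by that choice.

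**Figure D3:**
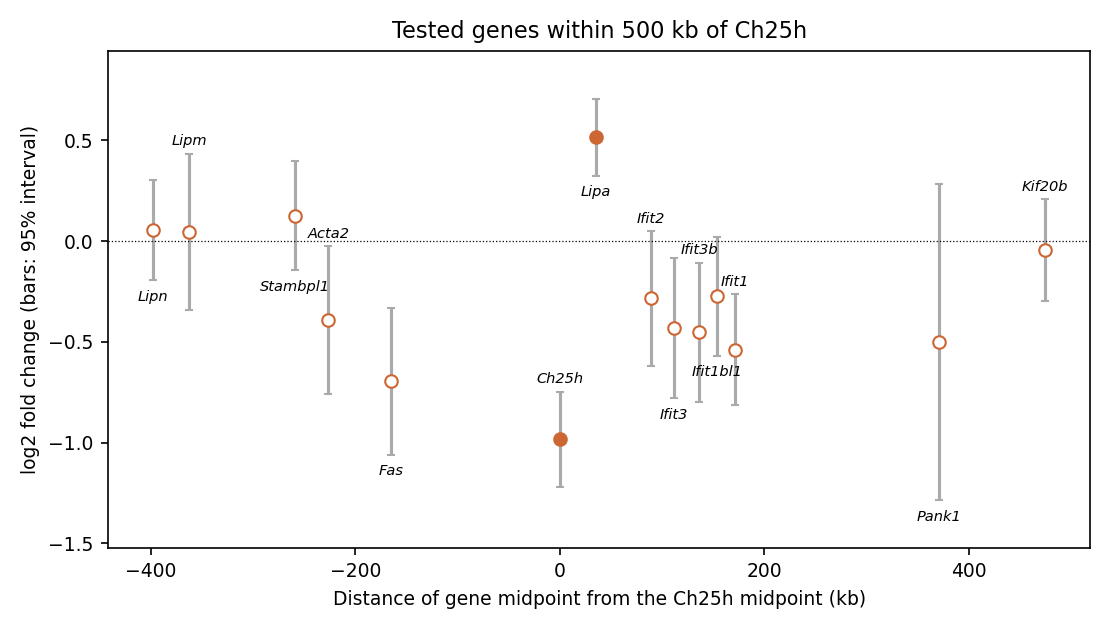
Log2 fold change of 6OHA minus control, with 95% intervals, against the distance in kb of each gene's midpoint from that of Ch25h, for 14 of the 16 tested genes within 500 kb. The 2 left out are a noncoding gene and a gene under 1 CPM in both groups, and filled points mark adjusted p under 0.05, which Lipa above 0 and Ch25h below 0 reach.

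Genes that act on the same steps as the members were taken as lists, chosen with earlier results of these data known. Of their 149 distinct tested genes, 16 were called, against 2.02% of all tested genes. Of 6 tested genes among 19 other oxysterol and bile acid enzymes, 0 passed with edgeR. At an unadjusted p under 0.05, 1 was lower, and 0 passed with DESeq2, against 10.9% and 2.94% of all tested genes. The most abundant was the peroxisomal enzyme gene Hsd17b4, at a log2 fold change of -0.04 (adjusted p = 0.952). The brain cholesterol hydroxylase gene Cyp46a1 and the hepatic enzyme gene Cyp7a1 were listed at 0. Of 8 tested oxysterol receptors and sensors, Insig1, which retains the SREBP escort protein in the endoplasmic reticulum, rose by 0.45 (SE 0.10, adjusted p = 0.0413) and 0 fell. Insig1 did not pass in 7 of 14 alternatives, among them no filter (adjusted p = 0.193) and the FPKM and TPM scales (0.133 to 0.163). It did not pass when 6OHA replicate 1 was left out (adjusted p = 0.185), nor without 6OHA replicate 3 (0.214) or without control replicate 2 (0.0599). The LXR gene Nr1h2 was present at a mean of 46.3 TPM over all libraries and its relative Nr1h3 at 0.536 TPM, and neither passed, at -0.13 (adjusted p = 0.858) and 0.56 (adjusted p = 0.783).

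Of 16 tested OSBP-related proteins and their anchors and lipid enzymes, 0 passed with edgeR. At an unadjusted p under 0.05, 3 were higher and 3 lower, and DESeq2 called 1 higher and 1 lower, against 10.9% and 2.94% of all tested genes. Osbpl3, a relative of Osbp, measured 34.0 and 33.2 CPM in control and 24.4 and 24.2 CPM in 6OHA, with groups far apart against their spread and an adjusted p of 0.0583 at a log2 fold change of -0.47. It is named after its values were seen, and it passed with DESeq2 (0.0239). Osbpl8 at -0.10 (adjusted p = 0.874), Osbpl9 at 0.22 (0.438), Osbpl11 at 0.13 (0.771) and the anchor gene Vapa at 0.10 (0.832) did not pass.

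Among 11 tested START and Aster carriers, Gramd1b alone passed. Gramd1b encodes Aster-B, which takes cholesterol from the plasma membrane into the endoplasmic reticulum, and lies on chromosome 9 from 40293233 to 40533614. It measured 231 and 227 CPM in control and 414 and 420 CPM in 6OHA. The replicates of each group were nearly equal, and Gramd1b was 1.82-fold higher (log2 fold change 0.86, SE 0.09, edgeR adjusted p = 0.000369). Gramd1a, which encodes Aster-A, did not pass at -0.11 (adjusted p = 0.872), and Gramd1c lay under 1 CPM at -0.19 (0.956). Stard3, a late endosomal carrier gene, at 0.08 (0.923), the soluble carrier gene Stard4 at 0.17 (0.624) and Tspo, a mitochondrial outer membrane protein gene and the most abundant of the list, at -0.22 (0.687) did not pass either.

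Of 19 tested partners of lysosomal cholesterol egress, 3 rose and 0 fell, where 2.02% of all tested genes were called in either direction. Tpcn2, an ion channel gene of lysosomes and endosomes on chromosome 7 from 145181633 to 145284011, measured 39.1 and 40.2 CPM in control and 80.8 and 83.6 CPM in 6OHA. It was 2.07-fold higher (log2 fold change 1.05, SE 0.10, adjusted p = 0.000224). Scarb2, a lysosomal membrane protein gene, measured 211 and 208 CPM in control and 322 and 294 CPM in 6OHA, and rose by 0.56 (SE 0.09, adjusted p = 0.00874). The call of Scarb2 was lost under the same 4 alternatives as that of Lipa, with adjusted p from 0.0589 to 0.0878, the highest without 6OHA replicate 1. Lipa was the remaining gene of the list that rose. Psap, the precursor of saposins and the most abundant of the list, did not pass at 0.09 (adjusted p = 0.838). The list had a median of 0.09 on the log2 scale. Among 10 tested genes of the cholesterol ester cycle, which include the members Soat1 and Nceh1, Lipa rose and 0 fell, with a median of 0.14. Soat2, the intestinal and hepatic counterpart of Soat1, did not pass at 0.17 (adjusted p = 0.782).

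Of 18 tested LXR targets, 7 rose and 0 fell, where 2.02% of all tested genes were called in either direction. The list had a median of 0.45 against -0.01 over all genes. The 7 that rose were the exporter genes Abca1, at 2.89-fold, and Abcg1, at 2.15-fold, with Mylip, Lpcat3, Apoc2, Scd1 and Scd2. Mylip did not pass in 4 of 14 alternatives, with no filter (adjusted p = 0.0725) and on the FPKM and TPM scales (up to 0.102), and Scd1 in 3, with no filter (0.0560) and on the FPKM scales (up to 0.0708). At an unadjusted p under 0.05, which 10.9% of all tested genes reached, 10 LXR targets were higher and 2 lower. DESeq2 called 8 higher and 0 lower, where it called 2.94% of all tested genes. Apoe, a lipoprotein gene and the most abundant of them, did not pass at 0.18 (adjusted p = 0.734), and its sign was the opposite on FPKM and TPM values. Apoe passed as higher in 1 of 14 alternatives. Of 21 tested SREBP2 targets, 1 rose, Insig1, and 0 fell, with a median of 0.30 and 20 genes above 0. At an unadjusted p under 0.05, 13 were higher and 0 lower, and DESeq2 called 6 higher and 0 lower, against 10.9% and 2.94% of all tested genes. The farnesyl diphosphate synthase gene Fdps at 0.33 (adjusted p = 0.114) and Srebf2 itself at 0.11 (0.870) did not pass with edgeR. Fdps passed with DESeq2 (adjusted p = 0.0280) and with edgeR once the GC trend was removed (0.0104). With the GC trend of each library removed, 11 LXR targets and 11 SREBP2 targets were higher and 0 lower, when 5.39% of all tested genes were called. Apoc2 shares 78.8% of its stretches with an overlapping transcript, Gm44805, so its reads are uncertain, and so are, to a lesser extent, those of Lpcat3 (9.10%), Scd1 (8.18%) and Scd2 (6.81%).

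Ch25h is also known as an inflammatory gene, and responses to its known inducers were taken as lists. Of 25 tested interferon response genes, 0 passed with edgeR, 1 was higher and 6 lower at an unadjusted p under 0.05, and DESeq2 called 1 lower, against 10.9% and 2.94% of all tested genes. With the GC trend removed, 1 was called higher and 3 lower, against 5.39% of all tested genes. The list had a median of -0.16, with 20 genes below 0. Irf7, a transcription factor gene, at -0.09 (adjusted p = 0.892) and Bst2, the most abundant of the list, at -0.16 (0.701) did not pass. Of 21 tested genes of the Toll-like receptor and NF-kB response, 2 rose, the chemokine gene Cxcl2 at 1.13 (adjusted p = 0.000154) and the AP-1 gene Fos at 0.82 (0.0401), and 2 fell, the receptor gene Tlr2 at -0.70 (0.00210) and the signalling inhibitor gene Socs3 at -0.49 (0.0418). The list had a median of 0.12, and 2.02% of all tested genes were called in either direction. At an unadjusted p under 0.05, 6 were higher and 6 lower, and DESeq2 called 2 higher and 2 lower, against 10.9% and 2.94% of all tested genes. With the GC trend removed, 4 were called higher and 4 lower, against 5.39%. Fos lost its call in 7 of 14 alternatives, including limma-voom (adjusted p = 0.0635) and no filter (0.165), and Socs3 in 9, including limma-voom (0.0529), the GC trend removed (0.0587) and no filter (0.142). Both also lost it on the FPKM and TPM scales. Of single libraries, Fos lost its call without 6OHA replicate 3 (adjusted p = 0.298) or control replicate 1 (0.0987), and Socs3 without 6OHA replicate 1 (0.323), 6OHA replicate 3 (0.206) or control replicate 2 (0.0511). Tlr4 at 0.21 (0.511) and its co-receptor gene Cd14, the most abundant, at -0.26 (0.325) did not pass, though Cd14 passed in 1 of 14 alternatives. Cxcl2 shares 7.59% of its stretches with Cxcl3.

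**Figure D4:**
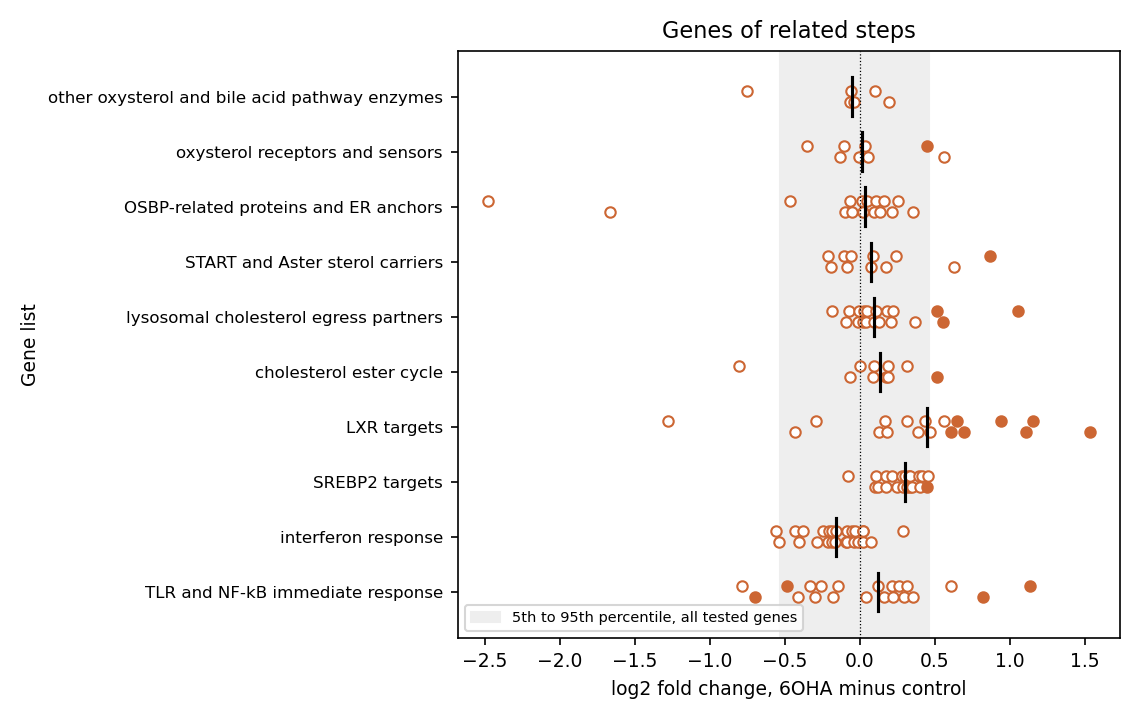
Log2 fold change of 6OHA minus control (horizontal axis) for each tested gene of 10 lists, with filled points for adjusted p under 0.05, a black bar at each list's median and a grey band from the 5th to the 95th percentile of all tested genes, -0.54 to 0.46. The medians run from -0.16 in the interferon list to 0.45 in the LXR list.

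The genes with the pattern most like Ch25h over the 4 libraries were mostly of low abundance. Likeness was measured as the distance between log2 CPM values centred on each gene's mean. The nearest was Olfm1, which encodes a secreted glycoprotein, at a distance of 0.141, whose mean was 7.70 CPM in 6OHA and 13.9 CPM in control (adjusted p = 0.0156 at a log2 fold change of -0.85). Olfm1 did not pass in 4 of 14 alternatives, with no filter (adjusted p = 0.0777) and on the FPKM and TPM scales (0.0667 to 0.0896). It was followed by Ttpa at 0.146, Slc27a6 at 0.164, Col27a1 at 0.174 and Cdhr4 at 0.184, which lay under 4 CPM in both groups and did not pass (adjusted p from 0.120 to 0.543). Ch25h itself stood at the 95.1st percentile of tested genes by mean TPM.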

How the data were processed

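RNA-seq libraries had been made with a stranded poly-A kit, per the labels' protocols. Per the file headers, the deposited count column holds whole reads for each gene. FPKM and TPM values were computed by the authors and deposited beside them, per the file headers. The submitters' processing notes name bcl2fastq 2.20.0, Trimmomatic 0.38, HISAT2 2.1.0, Bowtie2, SAMtools 1.9, StringTie 2.1.3b and mm10, without roles. How reads were counted is not given in the sources used here.

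Of 45777 genes, filterByExpr of edgeR 4.0.16 kept 14634, of which 295 were called (203 higher, 92 lower) by the quasi-likelihood test on TMM-scaled libraries with a single group term, where a call needs a p under 0.05 after Benjamini-Hochberg adjustment. The test was checked on simulated data. CPM values are TMM-scaled, and SDs are over 2 libraries. Libraries of a group were not copies, since their counts gave a chi-square over its degrees of freedom of 10.2 (6OHA) and 21.3 (control). Alternatives used DESeq2 1.42.0 and limma 3.58.1 under R 4.3.3. GC values from GENCODE M21 transcripts covered 93.4% of tested genes. The trend was a lowess curve per library, on log2 CPM centred on each gene's mean. Positions and promoter windows (250 bases before to 50 after a start) are RefSeq GRCm38.p6.

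The members, lists and motifs were chosen with earlier results of these data known. Named genes were all members, each list's called genes and most abundant gene by FPKM, genes of the same steps (some are not reported here) and the 5 nearest patterns to a called member. The genes around Ch25h and its neighbours were chosen after their values were seen.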

Additional observations from a re-analysis of the deposited data

How the results depend on the processing

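Under 14 alternatives (other scaling, tests, filters, units, a GC trend removed per library, and each library left out), Ch25h kept its direction and its call, with log2 fold changes from -1.09 to -0.86 and adjusted p from 5.48e-15 to 0.0190, and from -1.09 to -0.86 when each library was left out. The other 8 tested members did not pass under any of them (lowest adjusted p 0.180, for Gpr183 with the GC trend removed), so that 1 member was called throughout. In the main fit Ch25h also passed at an adjusted p under 0.01, which it did not reach with no filter (0.0190). The sign of Cyp27a1 and Npc2, both near 0, changed. Cyp27a1 was at -0.0080 with upper-quartile scaling, -0.0065 with no filter, -0.0037 with limma-voom, -0.0352 on log2(FPKM + 1), -0.0464 on log2(FPKM + 0.1), -0.0067 on log2(TPM + 1), and from -0.148 to 0.156 with a library left out. Npc2 was at -0.0062 with upper-quartile scaling, -0.0028 with no filter, -0.0019 with the GC trend removed, -0.0469 on log2(FPKM + 1), -0.0471 on log2(FPKM + 0.1), -0.0076 on log2(TPM + 1), and from -0.0360 to 0.0537 with a library left out.

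The number of genes called, 295, was 120 with no filter, 789 with the GC trend removed (60.6% of them higher), 135 on log2(FPKM + 1), 149 on log2(FPKM + 0.1), 152 on log2(TPM + 1), 149 at an adjusted p under 0.01, and from 265 to 501 with a library left out, the highest without control replicate 2. The cause was not tested. Of 149 tested list genes, 16 were called, against 9 with no filter, 9 on log2(FPKM + 1), 9 on log2(FPKM + 0.1), 40 with the GC trend removed and 25 with DESeq2. Apoe reversed to -0.46 on log2(FPKM + 1), -0.46 on log2(FPKM + 0.1) and -0.42 on log2(TPM + 1). With a library left out, list genes that did not pass and changed sign ran as follows, Hsd17b4 from -0.0962 to 0.0168, Osbpl8 from -0.252 to 0.0771, Stard3 from -0.0465 to 0.210, Gramd1a from -0.245 to 0.0468, Gramd1c from -0.517 to 0.330, Nr1h2 from -0.300 to 0.0511, Srebf2 from -0.0442 to 0.246 and Irf7 from -0.235 to 0.0691.
No paired analysis was possible because the groups share only replicate number 1. Having 2 libraries in a group limits each comparison, and Cyp7b1 could not be tested at this depth.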
